A study of Danio rerio with 4 samples.

Results

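Polysomal mRNA of eif3ha morphant zebrafish embryos (Danio rerio) was compared with polysomal mRNA of wild-type embryos, gene by gene, across 8261 genes. These were chosen from the 32313 Ensembl genes in the files as those with at least 3 RPKM (reads per kilobase of gene model, corrected for the library's depth) in 1 or both of the 2 polysomal libraries. Of the 8261 genes, 7228 reached this floor in both libraries, 509 in the wild-type library alone and 524 in the morphant library alone, and 6855 carry a symbol. Each gene is given as log2 of morphant over wild type after 0.5 was added to each RPKM, which understates the difference of genes near the floor. A gene was counted as higher or lower at 2-fold or more.

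The study asked which transcripts depend on eIF3h for their place on polysomes in the embryo. Polysomal mRNA came from 300 whole embryos and total mRNA from 50, each at about 24 hours after fertilization, and each of the 4 groups (wild-type polysomal, eif3ha morphant polysomal, wild-type total, eif3ha morphant total) holds 1 library. Morphants received a morpholino, an antisense oligonucleotide that blocks 1 target RNA, here eif3ha, and wild type is the only control that the labels name, so injection and loss of eIF3h cannot be told apart. The sources used here do not give the strain or the morpholino's dose and sequence. With 1 library a group there is no spread between replicates and no test between groups, so that differences below have no replicate check.

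An mRNA being translated carries ribosomes one behind the other, and such polysomes are separated from free mRNA by their weight. The initiation complex eIF3 brings the small ribosomal subunit to the mRNA, and eIF3h is one of its subunits that budding yeast lacks. The amount of an mRNA on polysomes follows both how much of it the embryo holds and what part of it is translated. In RNA of whole embryos, fewer cells of a type and less RNA per cell cannot be told apart.

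The depth recovered from the steps between low values was 15769466 mapped reads in wild-type polysomal and 22001380 in morphant polysomal mRNA, against 24939985 and 21021423 in total mRNA. At a length of 1 kb, a single read equals 0.0634 RPKM in the wild-type polysomal library and 0.0455 RPKM in the morphant one. The numbers of reads were recovered for 7413 of the 8261 genes (89.7%), mostly the less abundant ones. They give an exact (Clopper-Pearson) 95% interval of the log2 ratio of read rates that covers counting error only. Low counts of the polysomal pair scattered more widely than counting would give, so these intervals are too narrow. Of the summed polysomal RPKM, 43.7% in wild type and 38.8% in morphants fell to the 50 most abundant genes, against 24.2% and 24.1% in total mRNA.

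In morphant polysomal mRNA, transcripts of cell cycle arrest and apoptosis, hatching enzymes and some tailbud regulators stood higher than in wild type. Transcripts of lens fibres, muscle fibre proteins, actinodins of the fin fold, melanin synthesis and neurons stood lower. The floor fixed the direction of the tailbud regulators past 2-fold, of the gamma M crystallins of the lens, and of the actinodins and1 and and3. It also fixed that of the apoptosis genes bbc3 and pmaip1. Ribosomal protein transcripts, the most abundant class, were lower by less than 2-fold as a rule. At the 2-fold threshold, 145 of the 8261 genes (1.76%) were higher and 340 (4.12%) were lower, while 48.9% lay above and 51.1% below 0 on the log2 scale. Counts of higher and lower genes in the lists below are to be read against these shares. Counts of read rates, which also take in genes below the floor, have no such background, since their share over all genes is not given here. The median log2 ratio was -0.01, with the 5th percentile at -0.91 and the 95th at 0.72, and 6699 genes (81.1%) lay within 1.5-fold.

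The higher side was narrow and the lower side wide: 3 genes were at least 4-fold higher, whereas 76 were at least 4-fold lower. Of the 145 higher genes, 65 were above the floor in the morphant library alone, and of the 340 lower genes 154 were above it in the wild-type library alone, which fixes the direction of those genes. The counting interval left out 0 for 141 of 142 higher genes with recovered reads and for 288 of 306 lower ones. These genes were called from the same reads, so the intervals are no separate check of the calls. Among genes just above the floor, TNFAIP1 stood at 2.48 and 3.0005 RPKM on wild-type and morphant polysomes and reep1 at 3.001 and 2.51. Just below it, GBA2 stood at 2.79 and 2.9988 RPKM, and 1458 genes had their highest polysomal value between 2 and 3 RPKM.

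The balance of the comparison moved with abundance. Among 4300 genes with a mean polysomal level below 10 RPKM, the median log2 ratio was 0.03, with 97 genes higher and 199 lower. Among 3223 genes from 10 to 100 RPKM it was -0.02, with 44 higher and 104 lower. Among 610 genes from 100 to 1000 RPKM it was -0.23, with 3 higher and 26 lower, and among 128 genes at 1000 RPKM or more it was -0.47, with 1 higher and 11 lower. RPKM is scaled to the library's depth and not to its summed RPKM, so the split depends on the scaling. Summed RPKM was larger in the wild-type than in the morphant polysomal library. Thick filament genes of muscle, for example, summed to 6681 (wild type) and 5347 (morphant) RPKM on polysomes, yet to 0.851% and 0.870% of the summed RPKM. Both polysomal libraries also had larger summed RPKM than both total libraries. Where libraries are put in order below, the order is by RPKM and not by share. Scaling to equal summed RPKM was not run, and it would shift ratios further in the direction of the next scaling. Scaling each library to a total that leaves out the 50 most abundant genes put the median of the 8261 genes at 0.21, and the split became 332 higher and 233 lower. Differences below are given as deposited RPKM show them, and are to be read against that shift. It turned the sign of 17 of the 72 list medians, so that list medians close to 0 carry no direction.

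Within the called genes, the call itself fixes part of the order of the 4 libraries. In a lower gene the wild-type polysomal library cannot be the lowest of the 4, nor the morphant polysomal library the highest. In a higher gene the reverse holds. In 273 of the 340 lower genes the wild-type polysomal library held the highest of the 4 values, and in 148 the morphant polysomal library held the lowest. In 105 of the 145 higher genes the wild-type polysomal library held the lowest value. The same counts over all genes above the floor are not given here. Whether the order was uneven beyond what the call fixes was not tested. The median level of the lower genes was 10.9 RPKM (wild type) and 3.54 RPKM (morphant) on polysomes, and 5.87 and 5.56 RPKM in total mRNA. That of the higher genes was 3.44, 8.37, 9.87 and 18.2 RPKM in the same order. By these medians the lower genes differed little between the total libraries, and the higher genes were higher in morphant total mRNA, which did not hold for each of them.

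**Figure D1:**
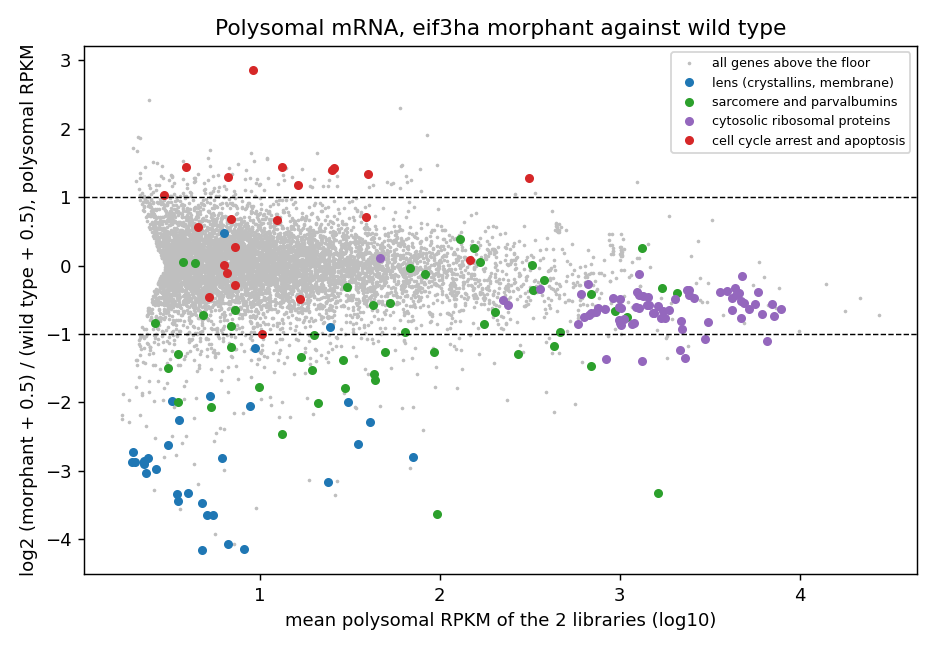
Log2 ratio of morphant to wild-type polysomal RPKM (each plus 0.5, vertical axis) against the mean polysomal RPKM of the 2 libraries (log10, horizontal axis) for the 8261 genes above the floor, 1 point per gene and 1 library per condition. Dashed lines mark 2-fold; lens genes lie farthest below, 10 arrest and apoptosis genes lie above 2-fold, and cytosolic ribosomal protein genes lie at the right below 0.

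Cell cycle arrest and apoptosis genes were the best-populated list on the higher side. When DNA is damaged or ribosomes are made wrongly, such genes stop the cell cycle or open the mitochondrial route of apoptosis. Of 33 such genes in the files, 22 were above the floor, 19 of them in both libraries and 3 in the morphant library alone. The floor fixed the direction of those 3. Of these 22, 10 were at least 2-fold higher and 0 lower, with a median log2 ratio of 0.69 against -0.01 over all 8261 genes. Over the 19 genes above the floor in both libraries the median was 0.66. Read rates, which need no floor, were higher in morphants for 19 and lower for 11 of 31 genes in the list with recovered reads.

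The ubiquitin ligase gene mdm2 (ENSDARG00000033443) stood at 3.65 RPKM in the wild-type and 9.69 in the morphant polysomal library, and at 6.82 and 26.1 RPKM in the total libraries. Its polysomal log2 ratio was 1.29, with a counting interval of 1.27 to 1.56 for the read rates. Its relative MDM4 (ENSDARG00000057513) stood at 14.0, 6.75, 22.9 and 10.2 RPKM over the 4 libraries in that order, a log2 ratio of -0.9997 that falls just short of 2-fold. These related genes thus lay on opposite sides in both fractions.

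The effectors of arrest and death stood high together in the morphant libraries. The cell cycle inhibitor cdkn1a, which codes for p21, stood at 6.88 and 19.6 RPKM on wild-type and morphant polysomes (log2 ratio 1.45), and at 1.76 and 23.6 in total mRNA. The arrest and DNA damage gene GADD45A stood at 13.8 and 37.9 RPKM on polysomes (1.43) and at 3.58 and 19.2 in total mRNA. The most abundant gene of the group was CCNG1, cyclin G1, at 181 and 442 RPKM on polysomes (1.29) and 156 and 884 in total mRNA. In each of them both morphant libraries exceeded both wild-type libraries.

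Among the death genes, the BH3-only gene bbc3 (Puma) stood at 1.88 and 5.97 RPKM on polysomes (1.45) and 0.825 and 10.7 in total mRNA. The initiator caspase casp8 stood at 13.6 and 36.7 RPKM on polysomes (1.4004) and 3.88 and 35.4 in total mRNA. BAX, which opens the outer mitochondrial membrane, stood at 29.4 and 48.2 RPKM on polysomes, a log2 ratio of 0.70 below 2-fold. The antiproliferative gene BTG2 lay at 0.09, so the list was not uniform. The BH3-only gene pmaip1 (Noxa) had the highest ratio of any gene with a symbol, 2.86, but rests on 3 wild-type and 49 morphant polysomal reads over a gene model of 138 bases. Both bbc3 and pmaip1 were above the floor in the morphant library alone, which fixes their direction, and both count among the higher genes of the list.

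The differences of this list varied in size between fractions. The median over its 22 genes was 0.69 in polysomal and 0.97 in total mRNA, and 10 list members were at least 2-fold higher in each fraction. Summed over the list, RPKM stood at 528 (wild type) and 947 (morphant) on polysomes and at 503 and 1447 in total mRNA. PHLDA3, an inhibitor of Akt signalling, is an example: 22.5 and 57.8 RPKM on polysomes (1.34) against 4.21 and 47.7 in total mRNA (3.36). For this gene the morphant libraries were close to each other, whereas wild-type polysomal mRNA held more of it than wild-type total mRNA. Wild-type polysomal mRNA also held more than wild-type total mRNA for cdkn1a, GADD45A, bbc3, casp8 and CCNG1, but less for mdm2 and MDM4. In RPKM the list's sums were close between the wild-type libraries and apart between the morphant ones. As shares of summed RPKM they were apart in both. The shares were 0.0673% (wild type) and 0.154% (morphant) on polysomes and 0.118% and 0.345% in total mRNA. CCNG1 alone made up a large part of these sums, most of all in morphant total mRNA, so they do not describe the other genes.

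**Figure D2:**
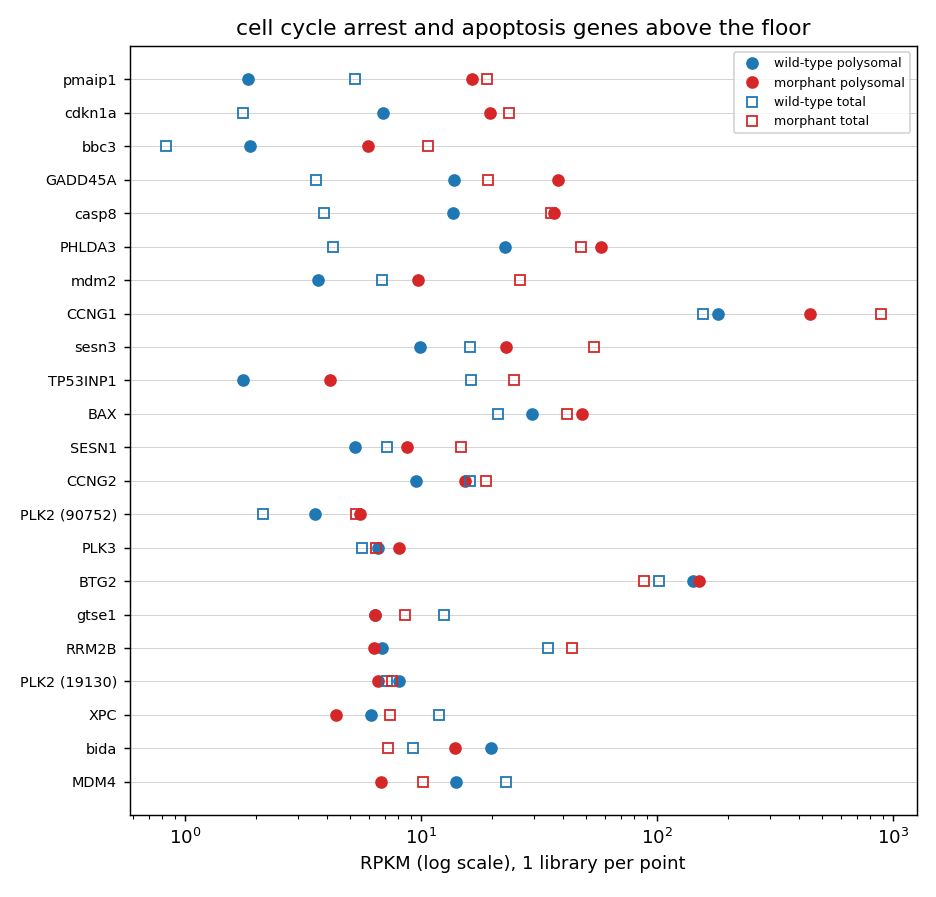
RPKM (log scale, horizontal axis) of the 22 arrest and apoptosis genes above the floor in each of the 4 libraries, ordered from the highest polysomal log2 ratio at the top to the lowest at the bottom. Filled circles are polysomal and open squares total mRNA, blue wild type and red morphant; CCNG1 stands at 181 and 442 RPKM on polysomes, and MDM4 at the bottom stands lower in both morphant libraries.

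Taking the comparison by total mRNA, 14 of the 8261 genes were at least 8-fold higher in morphant total mRNA, and the same 14 were at least 2-fold higher in polysomal mRNA. Their median log2 ratio was 3.50 in total mRNA and 1.45 in polysomal mRNA, where they ranged from 1.13 to 1.69. In each of the 14, wild-type polysomal mRNA held more RPKM than wild-type total mRNA, while morphant polysomal mRNA exceeded morphant total mRNA in 4. RPKM was not scaled to equal sums between fractions, so this order is uncertain where values are close. Whether the polysomal libraries share RNA was not tested, which limits how the sizes of polysomal ratios can be read. They included isg15, a ubiquitin-like protein of the interferon response, at 4.95 and 12.8 RPKM on polysomes (1.28) and 0.423 and 12.6 in total mRNA. They also included c4b, a complement component, at 2.40 and 6.27 RPKM (1.22) and 0.855 and 15.4 in total mRNA. RBL2, a pocket protein of the retinoblastoma family, was another, at 2.58 and 7.98 RPKM (1.46) and 2.13 and 21.6. Both c4b and RBL2 were above the floor in the morphant polysomal library alone, which fixes their direction. The match of the 14 between fractions is thus in part set by the floor. Of 29 members at least 4-fold higher in total mRNA, 23 were 2-fold higher on polysomes and 0 were 4-fold higher there. Each of the 29 had the smaller ratio on polysomes. The 14 and the 29 were picked by a high total ratio, which favours low wild-type total values and smaller polysomal ratios. How far this selection sets the sizes was not tested.

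Other stress programmes were represented by single genes. Of 18 integrated stress response genes above the floor, 2 were higher by 2-fold or more and 0 lower, and the median of 0.10 lay near that of all genes. The 2 were nupr1a, a stress-induced chromatin protein, at 172, 355, 40.8 and 120 RPKM over the 4 libraries (1.05), and atf5b, a stress transcription factor, at 1.43, 4.27, 9.87 and 21.8 RPKM (1.31). The floor fixed the direction of atf5b, which passed through the morphant library alone. At the other end of that list lay the serine synthesis genes PHGDH (-0.91) and PSAT1 (-0.65). Only 3 of 20 interferon response genes were above the floor, isg15, the MHC class I light chain b2m at 4.58 and 10.02 RPKM on polysomes (1.05), and irf1b, an interferon regulatory factor, at 91.4 and 66.3 RPKM (-0.46). The exonuclease gene isg20, at 49.8, 107, 31.9 and 103 RPKM (1.09), was among the 8 higher genes with 100 RPKM or more in either polysomal library. Of 794 such genes 49 were lower, against 340 of all 8261 genes (4.12%).

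A few genes of secreted proteins were also past 2-fold. FST (ENSDARG00000052846), follistatin, which binds activins, stood at 13.2, 35.3, 17.8 and 58.8 RPKM over the 4 libraries, a polysomal log2 ratio of 1.39. Another feature with that symbol (ENSDARG00000057992) lay at 0.48. The growth factors igf2a and igf2b lay at 1.196 and 1.11, and MMP2, a gelatinase, stood at 37.5 and 83.2 RPKM on polysomes (1.14) and 31.9 and 126 in total mRNA. These 4 genes were higher in both morphant libraries.

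Hatching gland transcripts were higher as well. The hatching gland of the embryo makes the enzymes that digest the egg envelope. Of 10 such genes in the files, 7 were above the floor, each in both libraries, 3 were at least 2-fold higher and 0 lower, and the median was 0.65. The hatching enzyme he1.1 stood at 26.0, 59.6, 36.5 and 72.4 RPKM over the 4 libraries (1.18) and he1.2 at 7.45, 19.4, 16.6 and 37.5 RPKM (1.33), with he1.3 at 0.32. The transcription factor of the gland, klf17, lay at 0.65 on polysomes and -0.08 in total mRNA.

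The hatching gland marker ctslb belongs to a cluster of cathepsin L genes, lysosomal-type cysteine proteases, that were described after their values were seen. RefSeq gives the synonym ctsl to 8 genes of the files, and 7 of these were at least 2-fold higher. The 7 lie near each other on 1 chromosome of the RefSeq assembly, and ctsll, the exception at 0.43, lies on another. The ratios of the 7 ran from 1.17 for ctslb to 1.47 for si:dkey-26g8.5. The most abundant, zgc:174153, stood at 42.4, 113, 250 and 439 RPKM over the 4 libraries (1.41), so that wild-type polysomal mRNA was the lowest of the 4. Such copies may share reads of 36 bases, and their separate levels are uncertain.

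The presomitic mesoderm is the tissue of the tailbud from which somites, the precursors of trunk muscle, are cut in sequence. Of 27 such genes in the files, 11 were above the floor (4 of them in the morphant library alone), 3 were at least 2-fold higher and 0 lower. The 3 are among the 4, so the floor fixed their direction. The median of the 11 was 0.36 on polysomes, 0.18 over the 7 above the floor in both libraries, and -0.51 in total mRNA, where 0 genes of the list were past 2-fold. The mesoderm factor tbx6 stood at 1.997 and 5.50 RPKM on polysomes (1.27) and 15.6 and 9.39 in total mRNA. The mesoderm factor msgn1 stood at 2.28 and 5.603 RPKM (1.14) and 22.8 and 12.3 in total mRNA, and the segmentation clock gene her7 at 0.996 and 3.32 RPKM (1.35) and 1.96 and 1.18. In these 3 the ratios of the 2 fractions had opposite signs, short of 2-fold in total mRNA, with few polysomal reads in wild type (95, 38 and 25).

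The posterior hox genes HOXC12 and HOXC13 also passed the floor in the morphant library alone, which fixes their direction. HOXC12 stood at 0.615 and 3.58 RPKM on polysomes (1.87) and 22.6 and 14.4 in total mRNA, and HOXC13 at 1.31 and 4.46 RPKM (1.45) and 11.6 and 7.61, from 7 and 11 wild-type polysomal reads. The other 8 genes of hox groups 10 to 13 above the floor ran from -0.40 for HOXD11 to 0.42 for HOXA11, and the list median was 0.15, or 0.02 over the 8 above the floor in both libraries. The medians of hox groups 1 to 5 and 6 to 9 were -0.04 and 0.00. SPRY4 and DUSP4, feedback inhibitors of Fgf and MAP kinase signalling, likewise lay at 1.31 and 1.11 on polysomes and at -0.14 and -0.13 in total mRNA.

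Lens transcripts were the lowest of any list. The lens grows by fibre cells that fill with crystallins and are joined by membrane proteins such as Mip and Lim2. Summed over 30 gamma M crystallin genes, RPKM stood at 129 (wild type) and 4.64 (morphant) on polysomes and at 2.96 and 2.199 in total mRNA. Summed over 20 other lens crystallins it stood at 414, 82.8, 50.5 and 51.8. The wild-type polysomal library was far above the other 3, which lay close together. The 17 gamma M crystallins above the floor were all at least 2-fold lower, at a median of -3.32, but each passed through the wild-type library alone. Of the 30, read rates were lower in morphants for 23 and higher for 1, and 6 had no polysomal read.

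Among the other crystallins, 9 of 20 were above the floor, 8 of them at least 2-fold lower, with a median of -2.05 (-2.28 over the 7 above the floor in both libraries). CRYGN stood at 60.7 and 9.55 RPKM on polysomes (-2.61) and 4.996 and 5.53 in total mRNA. CRYBB1 stood at 68.0 and 13.6 RPKM (-2.28) and 7.598 and 7.39 in total mRNA. CRYBA4, the exception, stood at 32.2 and 17.1 RPKM (-0.89). In total mRNA the log2 ratios of CRYGN and CRYBB1 were 0.13 and -0.04, so the difference was seen in the polysomal libraries alone.

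The lens transcription factor pitx3, the 1 gene above 0 among the 6 of its list above the floor, stood at 5.21 and 7.42 RPKM on polysomes (0.47), whereas the fibre membrane gene lim2.3 stood at 6.21 and 0.900 (-2.26) and lim2.1 at 13.4 and 5.51 (-1.21). Over 20 lens membrane, filament and regulator genes, read rates were higher in morphants for 9 and lower for 10. Of the 6 genes above the floor, 4 passed through the wild-type library alone, which fixes their direction. The median was -2.45 over the 6, but -0.37 over the 2 above the floor in both libraries. It became 0.47 when genes with over 4 times as much RPKM in the wild-type polysomal as in the wild-type total library were left out. In the retina and optic cup, 7 genes above the floor had a median of 0.23, which turned to -0.26 with a floor of 12 RPKM.

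Transcripts of skeletal muscle fibre proteins were lower on morphant polysomes. Muscle contracts as thick filaments of myosin pull on thin filaments of actin that carry troponin and tropomyosin, calcium from the sarcoplasmic reticulum sets this off, and parvalbumins take calcium up again in fast fibres. Medians were -1.50 for 7 parvalbumins, -1.08 for 14 thick filament genes, -0.71 for 28 thin filament and Z-disc genes and -0.63 for 14 genes of calcium handling and energy supply, against -0.01 over all genes. In those lists 6, 7, 9 and 5 genes were at least 2-fold lower and 0 were higher. In total mRNA the medians of the same genes were 0.02, 0.29, 0.41 and 0.41, none of them below 0.

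Without genes over 4 times higher in the wild-type polysomal than the wild-type total library, the parvalbumin median was -0.64, the thick filament median -1.23 and the thin filament median -0.36. Summed over 9 parvalbumins, RPKM stood at 3811 (wild type) and 593 (morphant) on polysomes and at 205 and 290 in total mRNA. In the wild-type polysomal library most of it was pvalb1, which stood at 2972, 295, 19.5 and 59.4 RPKM (-3.33), while pvalb2 stood at 597, 263, 49.7 and 95.4 (-1.18). In both genes wild-type polysomal mRNA was the highest and wild-type total mRNA the lowest of the 4. The exception, pvalb9, stood at 9.03 and 5.603 RPKM on polysomes (-0.64) and 124 and 125 in total mRNA. Read rates were lower in morphants for each of the 7 parvalbumins with recovered reads.

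In the thick filament, the fast myosin heavy chains and their binding protein stood lowest. The heavy chain myhz1.1 lay at -1.67, myhz2 at 64.8 and 21.3 RPKM (-1.58) and myhz1.2 at -1.38, and the myosin-binding protein mybpc2b at -1.79. The fast light chain feature MYL11 (ENSDARG00000053254), far more abundant, stood at 2615, 1023, 280 and 402 RPKM over the 4 libraries (-1.35). Light chains were not uniform: myl13, chosen after its values were seen, stood at 1211 and 1447 RPKM on polysomes (0.26). The heavy chain genes lie in near-identical copies, so reads of 36 bases may be split between them.

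Among troponins, the calcium switch of the thin filament, copies of 1 symbol differed. The inhibitory troponin feature TNNI2 (ENSDARG00000029069) stood at 1015, 366, 53.2 and 125 RPKM over the 4 libraries (-1.47), with 12223 and 6150 polysomal reads. Another feature with that symbol (ENSDARG00000035958) stood at 324 and 326 RPKM on polysomes (0.01). The troponin T feature TNNT3 (ENSDARG00000030270) stood at 385 and 156 RPKM (-1.30), while tnnt2c lay at 0.25. The titin-binding Z-disc gene tcap, at 9.01 and 1.76 RPKM, had the lowest ratio of its list, -2.07. It passed through the wild-type library alone, which fixes its direction. The cardiac-type actin actc1a, with 2295 and 4215 reads, lay at 0.39.

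In calcium handling and energy supply, the reticulum's calcium-binding protein CASQ1 (ENSDARG00000018105) lay at -1.93 and JPH2, which ties the reticulum to the surface membrane, at -1.28. The glycolytic muscle genes ENO3 and PYGM (ENSDARG00000013317) lay at -1.51 and -1.46. The muscle creatine kinases ckma and ckmb, at 1110 and 709 and at 1054 and 722 RPKM, lay at -0.65 and -0.55. The calcium pump atp2a1 stood at 134 RPKM in both polysomal libraries (0.00). The list thus held genes 2-fold and more lower beside a pump with no difference.

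The regulators of muscle did not share the direction of the fibre proteins. Of 14 above the floor, 11 lay above 0, 1 was at least 2-fold higher and 1 lower, and the median was 0.26. The myogenic factor MYOD1 stood at 35.0, 43.5, 41.2 and 39.9 RPKM over the 4 libraries (0.31, counting interval 0.20 to 0.43). MYOG, which acts later in the same series, stood at 49.5, 71.5, 59.8 and 46.6 (0.53, interval 0.42 to 0.64). Both were highest in morphant polysomal mRNA by RPKM, an order that depends on the scaling between fractions.

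Both muscle regulators past 2-fold carry the symbol SMYD1, a methyltransferase that myofibril assembly needs. The feature ENSDARG00000009280 stood at 60.5, 19.9, 5.94 and 7.31 RPKM over the 4 libraries (-1.58, interval -1.70 to -1.50). The feature ENSDARG00000091253 stood at 16.3, 37.2, 164 and 180 RPKM (1.17, interval 0.94 to 1.46). They also lay on opposite sides in the order of fractions, the first higher on polysomes and the other higher in total mRNA. Their gene models are 2754 and 642 bases long. Of 16 heart genes in the files, 3 were above the floor, and cmlc1, an atrial-type light chain, and the heart factor HAND2 lay at 0.70 and 0.85.

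**Figure D3:**
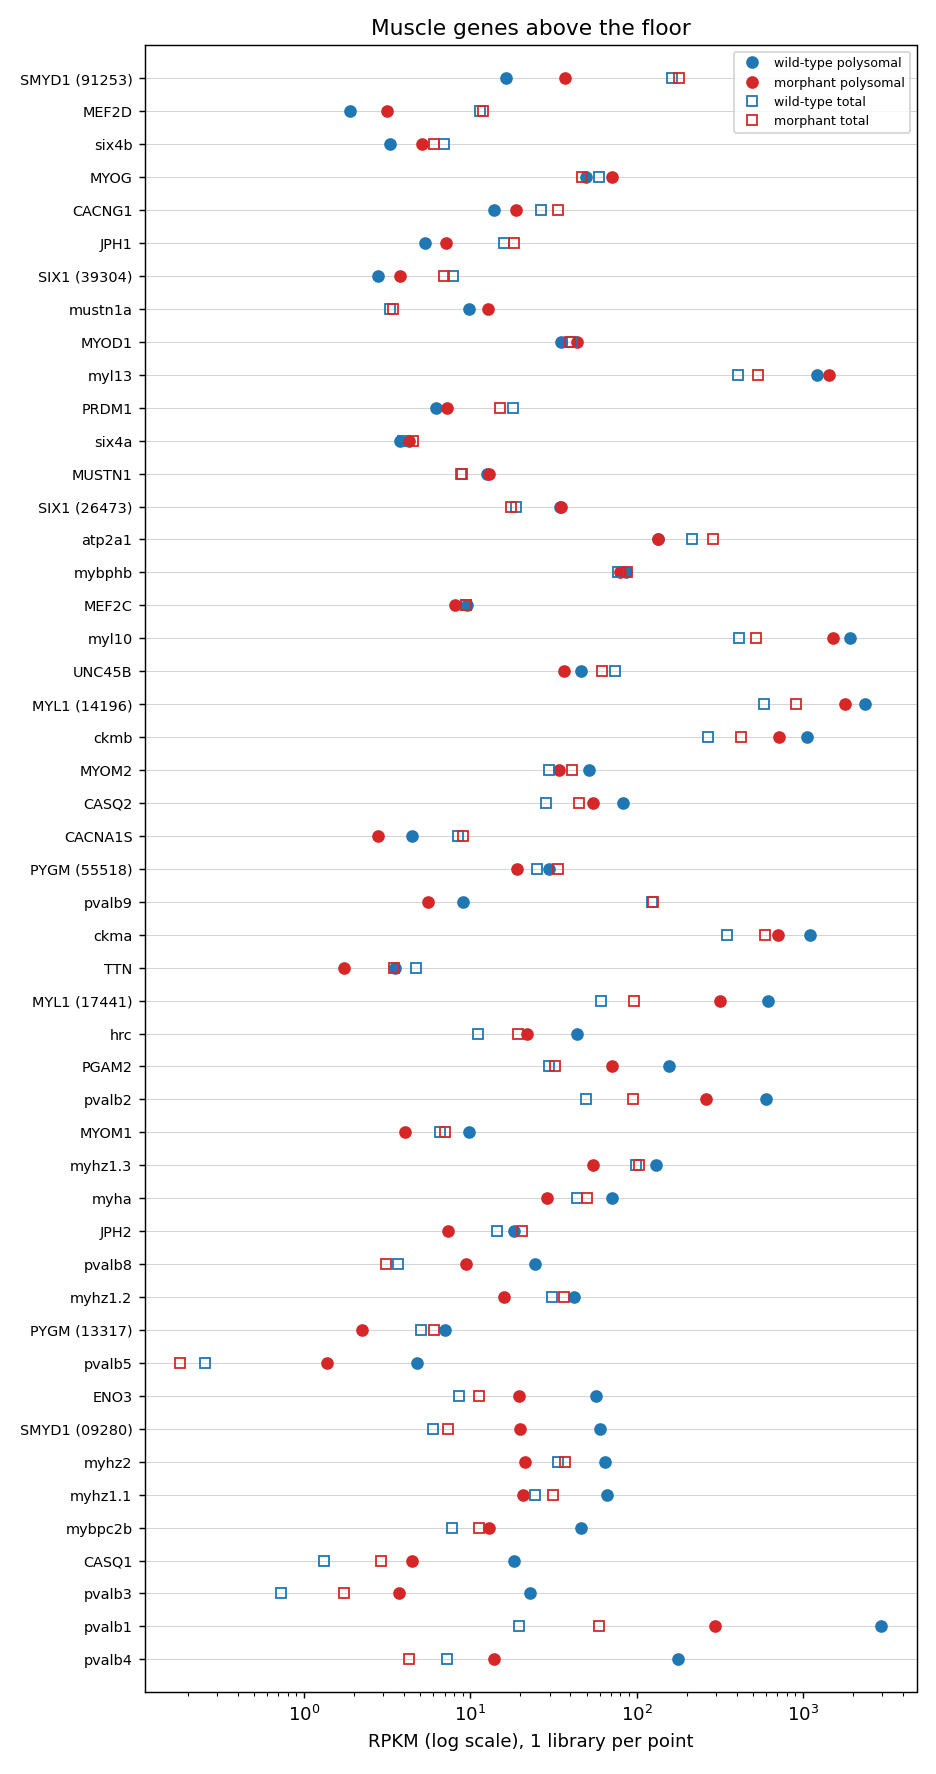
RPKM (log scale, horizontal axis) of parvalbumin, thick filament, calcium and energy, and muscle regulator genes above the floor in each of the 4 libraries, ordered by polysomal log2 ratio. Filled circles are polysomal and open squares total mRNA, blue wild type and red morphant; the last digits of the gene identifier follow a symbol that occurs more than once, the SMYD1 features lie far apart, and pvalb1 stands at 2972 (wild type) and 295 (morphant) RPKM on polysomes.

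The fin fold, a sheet of skin stiffened by actinodin fibrils, gave 3 genes at least 2-fold lower among 8 above the floor. Of these, and1 and and3 passed through the wild-type library alone, which fixes their direction, and the median over the 6 genes above the floor in both libraries was -0.01. The actinodin and3 stood at 18.0, 1.09, 0.265 and 0.511 RPKM over the 4 libraries (-3.54) and and2 at 16.5, 3.88, 0.260 and 1.496 (-1.95). For both, wild-type polysomal mRNA was several times above the other 3 libraries. The other 5 genes of the list, which are regulators and matrix genes rather than actinodins, ran from -0.51 for BMP1 to 0.45 for TP63, the factor that maintains the epidermis.

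Skin transcripts were not lower as a group. Of 32 periderm and epidermis genes above the floor, 1 was at least 2-fold higher and 1 lower, at a median of 0.08. The keratin krt1-19e stood at 55.8, 12.7, 16.9 and 19.2 RPKM (-2.09), while krt4, the abundant keratin of the outer layer, stood at 2865, 2397, 3045 and 4400 (-0.26). PKP1, a desmosome protein, lay at 1.06. Claudins, the seals of tight junctions, lay mostly above 0, with cldn3d at 1.17, cldn30 at 1.01, cldn7b at 0.75 and cldn1 at -0.29. Over 23 cadherins, claudins and integrins above the floor the median was 0.29, with 2 at least 2-fold higher and 0 lower.

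Matrix genes were split. The type I collagen chain COL1A1 stood at 173, 82.8, 67.3 and 88.1 RPKM over the 4 libraries (-1.06), with col1a1a at -0.81 and COL1A2 at -0.68. The fibril-binding proteoglycan FMOD (ENSDARG00000044895) stood at 86.7 and 40.4 RPKM on polysomes (-1.09), and the proteoglycan core vcanb lay at -1.15. On the other side, col8a1a, a short-chain collagen, lay at 1.08 and the basement membrane laminin chain lamc1 at 0.88. The medians of 21 collagen chains and 24 other matrix genes were 0.04 and -0.01.

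Pigment cells gave 4 of 8 melanin and melanosome genes at least 2-fold lower and 0 higher, at a median of -1.001 (-1.06 over the 6 above the floor in both libraries). Of 15 such genes in the files, read rates were lower in morphants for 14 and 1 had no polysomal read. The melanin synthesis features TYRP1 stood at 54.8, 12.6, 11.2 and 12.03 RPKM over the 4 libraries (ENSDARG00000056151, -2.07) and at 32.7, 6.91, 6.76 and 8.17 (ENSDARG00000029204, -2.16). The melanosome receptor GPR143 lay at -1.07 and MITF (ENSDARG00000003732), the master factor of the lineage, at -0.28. The other neural crest and pigment cell genes had a median of -0.05 over 15 genes, with 0 past 2-fold.

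Transcripts of differentiating neurons were lower. Of 62 neuronal genes in the files, 21 were above the floor (8 in the wild-type library alone), 7 were at least 2-fold lower and 0 higher. The median was -0.80, and -0.95 over the 13 above the floor in both libraries, against -0.04 in total mRNA for the same genes. Without a floor, read rates were lower in morphants for 49 and higher for 7, with no share over all genes to set beside them. The synaptic gene cplx2a stood at 13.7, 4.09, 3.48 and 3.10 RPKM over the 4 libraries (-1.63) and the cytoskeletal regulator DPYSL3 at 10.5, 4.22, 11.5 and 9.32 (-1.22). The transcription factor ISL2 features lay at -0.08 and -0.23, nearer 0 than the synaptic and cytoskeletal genes.

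Several tubulins stood in the same direction. The tubulin feature TUBA1A stood at 408, 169, 78.6 and 73.0 RPKM over the 4 libraries (-1.27), tuba1c at 198, 69.3, 40.05 and 32.5 (-1.51), and tubb5 at 184, 77.8, 122 and 81.6 (-1.23). By contrast tubb4b lay at 0.27 and tmsb4x, an actin-binding peptide, at 0.05. Over 23 tubulin and actin-related genes the median was -0.21, with 6 at least 2-fold lower.

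Neural progenitor genes as a list lay near 0, at a median of -0.15 over 36 genes that turned to 0.08 under totals without the 50 most abundant genes. The 3 genes of the list at least 2-fold lower code for proteins of radial glia: the intermediate filaments VIM (ENSDARG00000010008), at 90.03, 34.3, 47.0 and 37.8 RPKM (-1.38), and nes (-1.04), and the fatty acid carrier FABP7 (ENSDARG00000007697), at 101, 39.4, 25.5 and 17.9 RPKM (-1.35). The glial filament GFAP lay at -0.92. Transcription factors of the same list, such as SOX2 at 0.32 and the ZIC2 feature ENSDARG00000037178 at 0.61, lay above 0. The homeobox gene OTP (ENSDARG00000014201), needed for neuroendocrine neurons of the hypothalamus, stood at 6.72, 0.696, 3.09 and 1.35 RPKM, a polysomal log2 ratio of -2.59, and was lower in total mRNA too (-0.96).

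**Figure D4:**
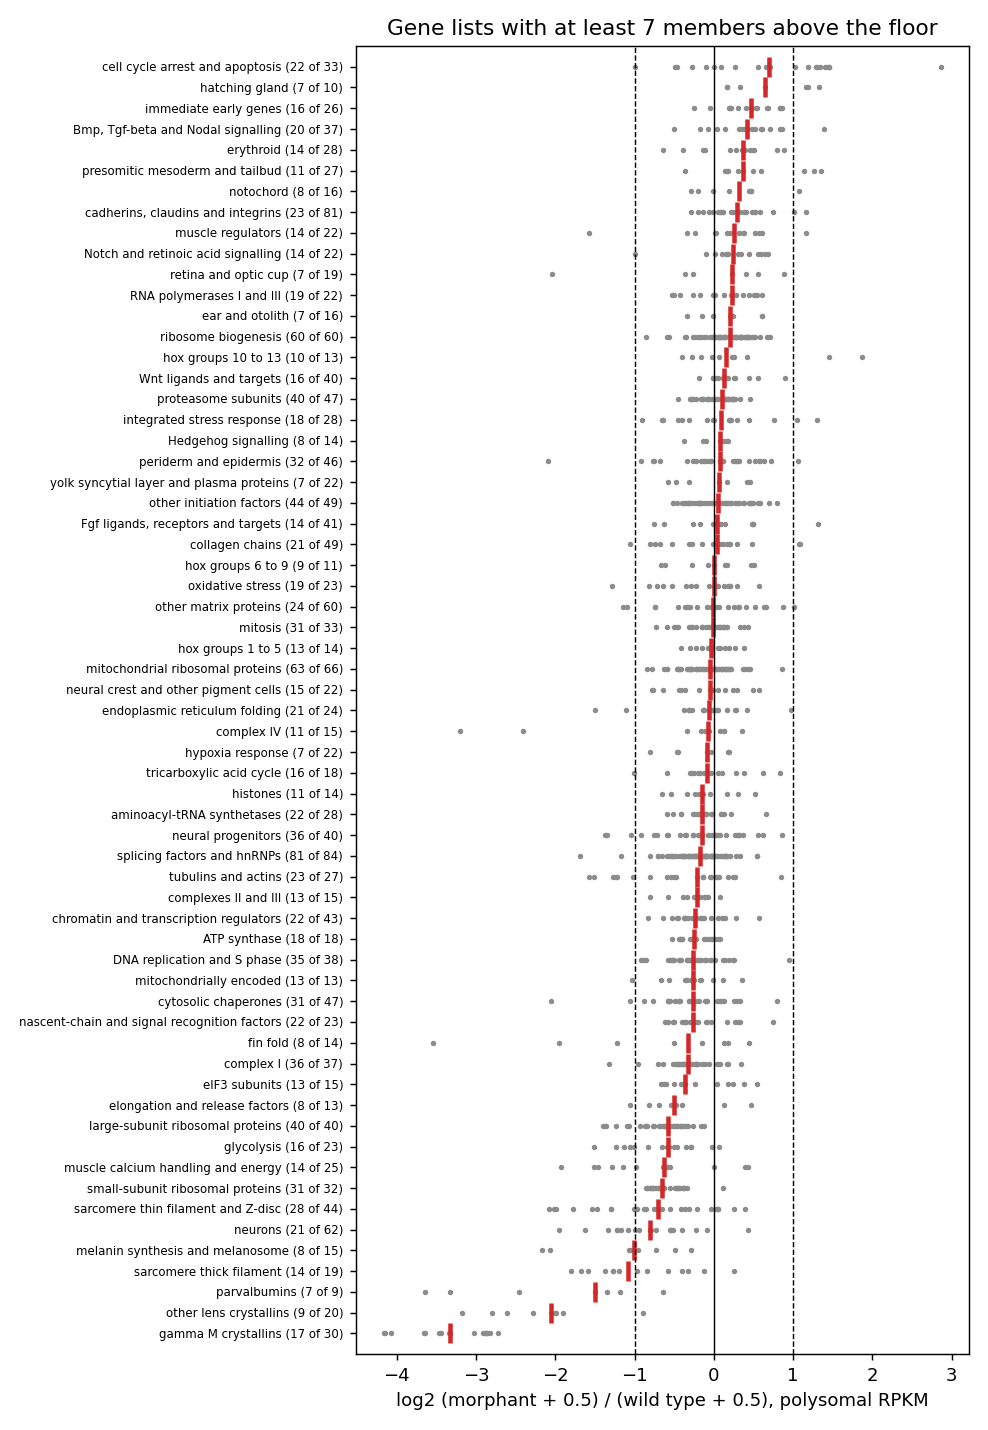
Polysomal log2 ratio of morphant to wild type (horizontal axis) of each gene above the floor (grey points) in the lists with at least 7 such genes, with the list's median (red bar), ordered by the median. Numbers after each name are genes above the floor of genes in the files, and dashed lines mark 2-fold; crystallins, parvalbumins and thick filament genes stand at the bottom and arrest, apoptosis and hatching gland genes at the top.

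Components of the translation machinery took the largest share of the polysomal libraries. The 40 large-subunit ribosomal protein genes made up 12.7% (wild type) and 10.5% (morphant) of the summed polysomal RPKM, against 7.03% and 6.58% in total mRNA. The 32 small-subunit genes made up 13.5%, 11.3%, 6.64% and 6.35% in the same order. Each of the 40 large-subunit genes lay below 0, 6 of them at least 2-fold, at a median of -0.58. Of the 31 small-subunit genes above the floor 30 lay below 0, none at 2-fold, at a median of -0.65, with faub (0.12) as the exception. Over all 128 genes at 1000 RPKM or more, which include many of these, the median was -0.47. Scaled to totals that leave out the 50 most abundant genes, the medians were -0.35 and -0.42.

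Within the large subunit the ratios were spread. The feature RPL5 (ENSDARG00000020197), which carries the 5S rRNA into the ribosome, stood at 3314, 1296, 1083 and 1196 RPKM over the 4 libraries (-1.35). RPL11, its partner in that particle, stood at 5037, 4511, 1635 and 1789 (-0.16). The stalk proteins RPLP1 and RPLP0 lay at -1.23 and -1.07, and RPL19 at -0.12. In total mRNA the log2 ratios of that RPL5 feature and of RPL11 were 0.14 and 0.13. Another RPL5 feature (ENSDARG00000015862) lay at -0.84 on polysomes.

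Other parts of the machinery lay closer to 0. The 13 eIF3 subunit features above the floor had a median of -0.36, with 0 past 2-fold, from EIF3K at 551 and 346 RPKM (-0.67) to EIF3B at 64.1 and 93.9 (0.55). EIF3H (ENSDARG00000036116), the feature named for the targeted family, stood at 6.33, 7.605, 6.24 and 5.92 RPKM over the 4 libraries (0.25, interval -0.15 to 0.70). Its polysomal difference was not detectable at this depth, and the files do not say which eif3h copy it is. A morpholino that blocks translation could leave its total mRNA in place, which does not bear on the polysomal level. Whether the morpholino lowered this feature on polysomes was not tested further. The other 44 initiation factors had a median of 0.05, with the EIF4G2 feature ENSDARG00000020377, which drives cap-independent initiation, at 48.5 and 84.7 RPKM (0.80). Elongation and release factors had a median of -0.50 over 8 genes, with eef1a1l1, the abundant carrier of aminoacyl-tRNA, at 3398 and 2345 RPKM (-0.53) and the release factor ETF1 at 0.47.

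The makers of ribosomes lay on the other side from the ribosomal proteins. Of 60 ribosome biogenesis genes, 45 lay above 0 on polysomes, at a median of 0.20 against -0.06 in total mRNA, with 0 past 2-fold. The rRNA methyltransferase FBL stood at 147, 208, 218 and 208 RPKM over the 4 libraries (0.50), IMP4, of the small-subunit processome, lay at 0.70, and the nucleolar helicase DDX21 at -0.85. RNA polymerase I and III subunits had a median of 0.23 over 19 genes. Mitochondrial ribosomal proteins (63 genes, -0.05) and proteasome subunits (40 genes, 0.11) lay near 0 with 0 past 2-fold, and 22 aminoacyl-tRNA synthetases had a median of -0.15 that turned to 0.08 under totals without the 50 most abundant genes.

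Chaperones were lower in single cases. The endoplasmic reticulum chaperone HSP90B1 stood at 79.6, 27.8, 34.1 and 23.2 RPKM over the 4 libraries (-1.50), and its calcium-binding neighbour CALR at 17.0, 7.58, 28.9 and 21.0 (-1.11). The other 19 reticulum folding genes above the floor were within 2-fold, with RPN2 at 0.97, and the median was -0.06. In the cytosol, the small heat shock gene hspb9 lay at -2.06 and CCT4, of the chaperonin ring, stood at 542 and 261 RPKM (-1.05). The median of 31 cytosolic chaperones was -0.27.

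Among energy genes, glycolysis had 5 of 16 genes at least 2-fold lower and 0 higher, at a median of -0.58 on polysomes and 0.21 in total mRNA. GPI stood at 36.4, 17.2, 10.03 and 10.9 RPKM over the 4 libraries (-1.06) and GAPDHS at 79.0, 33.2, 27.7 and 23.7 (-1.24), while HK1 lay at 0.07. In complex IV of the respiratory chain, cox6b1 stood at 137, 25.5, 3.10 and 6.01 RPKM (-2.40) and cox4i1l at 8.56, 0.488, 0.184 and 0.730 (-3.20). The floor fixed the direction of cox4i1l, which passed through the wild-type library alone. The other 9 complex IV genes lay between -0.34 and 0.36, and the paralogues cox6b2 and COX4I1 at -0.07 and -0.11.

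The mitochondrial carrier SLC25A4, which exchanges ADP for ATP, stood at 47.9, 4.22, 0.867 and 2.52 RPKM over the 4 libraries (-3.36). In cox6b1, cox4i1l and SLC25A4 wild-type polysomal mRNA was the highest of the 4 libraries and both morphant values exceeded wild-type total mRNA. Complex I (36 genes, median -0.33), ATP synthase (18 genes, -0.25) and the 13 mitochondrially encoded genes (-0.26) had 1, 0 and 1 genes at least 2-fold lower. The 13 mitochondrial genes made up 8.98% (wild type) and 8.91% (morphant) of the summed polysomal RPKM.

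Signalling genes lay slightly above 0. Immediate early genes, which respond to stimuli within minutes, had 14 of 16 above 0 at a median of 0.47, against -0.02 in total mRNA, with 0 past 2-fold. Among them FOS stood at 9.98, 18.2, 0.247 and 4.99 RPKM over the 4 libraries (0.83) and ier2b at 27.2, 49.8, 4.69 and 9.55 (0.86). Bmp, Tgf-beta and Nodal genes had 17 of 20 above 0 at a median of 0.41, with FST (ENSDARG00000052846) as the 1 past 2-fold and ID1, a Bmp target, at 905, 1179, 537 and 544 RPKM (0.38). Wnt genes had a median of 0.12 over 16 and Fgf genes of 0.04 over 14. Erythroid genes had 10 of 14 above 0 at a median of 0.37, led by hbae4 (0.88) and UROD of haem synthesis (0.80), with carbonic anhydrase ca2 at -0.64.

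Cell division genes lay near or below 0. DNA replication genes had a median of -0.26 over 35, with 28 below 0 and 0 past 2-fold, and -0.29 in total mRNA. RRM1, of the enzyme that makes deoxyribonucleotides, stood at 96.4, 50.7, 104 and 62.4 RPKM over the 4 libraries (-0.92), lower in both fractions. CCNA2, a cyclin, stood at 17.7, 34.4, 114 and 110 (0.94), with the total libraries close to each other. Mitosis genes had a median of -0.02, and 81 splicing genes of -0.17, which turned to 0.06 under totals without the 50 most abundant genes. The lowest splicing genes were the pre-mRNA binding proteins hnrnpa3 (-1.69) and HNRNPA1L2, at 387, 172, 359 and 209 RPKM (-1.17).

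Features named for small or ribosomal RNAs lay mostly on the lower side. Among 32 features above the floor with microRNA, small nucleolar RNA, U6 or rRNA names, 17 were lower by 2-fold or more and 1 higher, at a median of -1.18. Of the 17, 12 passed through the wild-type library alone and 15 had fewer than 20 reads in either library. One with more reads, mir133b, a muscle microRNA, stood at 128, 55.2, 55.8 and 74.8 RPKM over the 4 libraries (-1.20). Of the 340 lower and 145 higher genes, 43 and 7 have gene models under 200 bases. Without short models or those of unknown length, 263 genes were lower and 135 higher.

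The polysomal comparison was set beside that of total mRNA, which uses other libraries. Of 12154 genes above the floor in total mRNA, 174 (1.43%) were higher in morphants by 2-fold or more and 82 (0.675%) lower. Of the 145 genes higher on polysomes, 49 were also at least 2-fold higher in total mRNA, which is 33.8% of the polysomal and 28.2% of the total list. Of the 340 lower on polysomes, 13 were also lower in total mRNA, 3.82% of the polysomal and 15.9% of the total list, and 6 were 2-fold higher there. Across 7825 genes above the floor in both fractions the log2 ratios had a Pearson correlation of 0.37 and a Spearman correlation of 0.36, as a description over genes that share their libraries and are not independent.

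**Figure D5:**
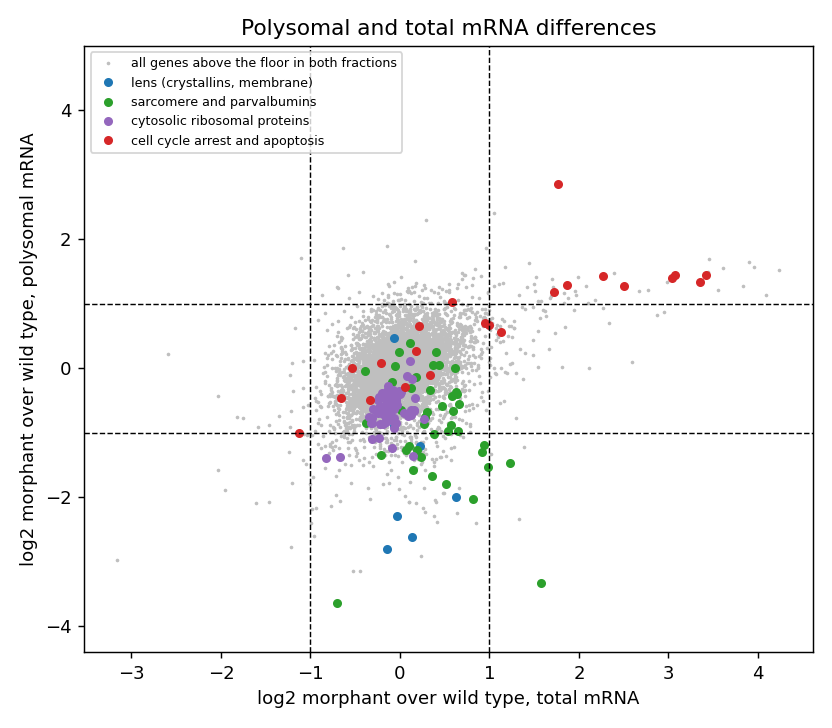
Log2 ratio of morphant to wild type in polysomal mRNA (vertical axis) against that in total mRNA (horizontal axis) for the 7825 genes above the floor in both fractions, 1 point per gene. Dashed lines mark 2-fold; arrest and apoptosis genes such as cdkn1a, at 3.41 in total and 1.45 in polysomal mRNA, lie to the right, and muscle genes lie low on polysomes at total ratios near or above 0.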

How the data were processed

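The authors deposited 1 RPKM value per gene and library for 32313 Ensembl genes in each of 4 libraries of polyA mRNA, prepared with an Illumina kit per the labels' protocols. The series' design text gives single-end reads of 36 bases from an Illumina Genome Analyzer IIx. The submitters' processing notes name the Zv9 build. The sources used here do not give the aligner, the counter, the annotation release or strandedness, so genes that overlap or have near-identical copies may share reads. Symbols were joined by Ensembl identifier for 20499 genes, and symbols in capitals, as mammals write them, were left so. No coordinates or sequences are printed, because no genome of that build was used here.

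RPKM values move in equal steps, as reads plus 1 would, which gave the depth and, for 31449 genes (97.3%), the reads. Log2 ratios used a pseudocount of 0.5, a floor of 3 RPKM in either polysomal library and a fold of 2. Of genes with 4 steps over both polysomal libraries, 21.4% were split evenly, against 48.6% expected from counting, and in total mRNA 45.5% against 49.6%. The calls were tested on simulated data.

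The genes, the 72 gene lists and the rule for named genes were chosen with earlier results of these data known, and 6 wrong matches to list names were left out. Named genes are the 20 highest and 20 lowest with a symbol beyond 2-fold (gamma M crystallins described as a family), the 15 most abundant, the 10 highest and 10 lowest beyond 2-fold at 100 RPKM or more, up to 4 per list farthest from 0, and the targeted family. Not every gene of the rule is given, some genes are not reported here and were left out of the lists, and any other gene named was chosen after its values were seen. Alternatives were other pseudocounts, floors, folds, scalings, counting intervals and left-out genes. Values were computed in Python 3.11.15 with pandas 2.3.3 and NumPy 2.4.6, intervals with SciPy 1.17.1, and plots drawn with Matplotlib 3.10.9.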

Additional observations from a re-analysis of the deposited data

Results flagged for a closer look

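Of the 8261 genes, 7 were at least 2-fold different in polysomal and in total mRNA with opposite directions. The difference between the fractions was not tested, since each group has 1 library. TNNI2 (ENSDARG00000029069), a fast-muscle troponin, had log2 ratios of -1.47 on polysomes and 1.23 in total mRNA. The parvalbumin pvalb1 had -3.33 and 1.58, and the actinodin and1 of the fin fold -1.22 and 1.38, from 7.36 and 2.88 RPKM on polysomes and 1.83 and 5.59 in total mRNA. For each of these 3, wild-type polysomal mRNA was the highest and wild-type total mRNA the lowest of the 4 libraries by RPKM. For and1, whose values are close, this order depends on the scaling between fractions.

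The other 4 are features of small RNAs with few reads. The microRNA features mir130b, mir457b and mir19c had polysomal log2 ratios of -1.33, -1.45 and -2.34 and total log2 ratios of 1.01, 1.22 and 1.33. They rest on 9, 4 and 6 reads in wild-type polysomal mRNA and 4, 1 and 0 in morphant polysomal mRNA. The small nucleolar RNA feature SNORD14 had 1.72 and -1.10, from 0 and 6 polysomal reads. The counting interval of the polysomal ratio held 0 for mir130b, mir457b and SNORD14.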

How the results depend on the processing

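No paired analysis was possible because each group holds 1 library, and leaving out a replicate was not possible for the same reason. The direction of excess, more genes lower than higher, held under each alternative run except 1. The exception, scaling to totals without the 50 most abundant genes, gave 332 higher and 233 lower. Summed RPKM was larger in the wild-type polysomal library, and scaling to equal summed RPKM was not run. Equal sums would raise morphant polysomal values further than the exception did. The 50 most abundant genes took 43.7% of summed polysomal RPKM in wild type and 38.8% in morphants. The excess of lower genes would therefore not hold with equal sums. Other counts were 280 higher and 549 lower with no floor, 58 and 161 at a floor of 12 RPKM, 80 and 186 at 3 RPKM in both libraries, 657 and 905 at 1.5-fold, and 3 and 76 at 4-fold. Across the settings 30 of 72 list medians changed sign, 17 of them under totals without the 50 most abundant genes, and 18 of the 30 lay within 0.1 of 0 as reported. Among those farther from 0, lens membrane genes (0.47) and myeloid genes (0.054) changed sign without genes over 4-fold higher in wild-type polysomal than total mRNA. With no floor, the retina (-0.062), myeloid (0.11), interferon (-0.0085) and cadherin, claudin and integrin (-0.007) lists changed sign. The retina list also changed at a floor of 12 RPKM (-0.26) and by its mean (-0.085), and the ear list (-0.0061) at 3 RPKM in both libraries. With the 50 most abundant genes left out of the totals, neural progenitors (0.078), aminoacyl-tRNA synthetases (0.079), complexes II and III (0.013), cholesterol synthesis (0.027), histones (0.079) and splicing factors (0.058) did. This scaling adds 0.23 to each log2 ratio before the pseudocount, which gives these changes by construction, and the cause of the others was not tested. Under median-of-ratios and upper-quartile scaling the median of all genes stood at 0.0006 and 0.048. With reads of 1 library a side, the spread between pools of embryos is unknown and no p-value can be given.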
